A study of Mus musculus with 8 samples.

Results

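The chemokine receptor genes Cxcr3, Cxcr4, Cxcr5, Cxcr6, Ccr4, Ccr6, Ccr7, Ccr8 and Ccr10 were followed across CD4 T cell types of immunized mice. They were taken as a list by their gene name on the arrays, which gave 9 of 29924 gene names. All 9 had a probe that was well above background on all 8 arrays, and they were among the 15764 genes tested. The mice carried the strain name B6.Cg-Foxp3<tm1Mal>, in which cells expressing Foxp3, the master regulator of Treg cells, also make EGFP. They were immunized s.c. with KLH, a foreign protein, in alum, and the pLN were taken at d12 or d25. By the labels, each sort came from a pool of 8 to 15 mice of mixed sex aged 8 to 14 weeks, with an RNA input amount of 25 ng. The study's methods also give other pool sizes and ages, so these are not settled, and count more sorts per day than the arrays analysed here. Tnaive cells were GFP- and PD1-GL7-, TFH cells were GFP- and PD1hiGL7+, Treg cells were GFP+ and PD1-GL7-, and TFR cells were GFP+ and PD1hi with GL7 present or absent. TFR and TFH cells therefore differ in the GL7 gate as well as in Foxp3. The Tnaive gate used no CD44 or CD62L, so it may hold other CD4 T cells that lack PD1 and GL7. Each cell type had 1 array per day, so that n = 2 for a cell type over both days and 1 within a day.

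Chemokine receptors are G protein-coupled receptors that steer cells along gradients of small secreted proteins, the chemokines. In a lymph node, CCR7 holds T cells in the T zone, where its ligands CCL19 and CCL21 are made. CXCR5 draws cells into the B cell follicle along CXCL13, and CXCR4 binds CXCL12 and places cells in the dark zone of the germinal center. The other receptors of the list are better known from T cells that enter inflamed or barrier tissues. CXCR3 marks Th1 type cells, CCR6 Th17 type cells, CCR4 and CCR8 Th2 type and regulatory cells, and CXCR6 resident effector cells, whereas CCR10 directs cells to skin and mucosa.

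Levels are given in RU, the spot signal after quantile normalization, with 1500 as the 75th percentile and 20 as the lowest value allowed. A probe's brightness depends on its sequence, so levels are compared between cell types for a gene and not between genes. Between 18261 and 19867 probes were well above background per array. The sorts carried their defining mRNAs. Cd4 lay between 41404 and 105940 RU on all arrays, Foxp3 between 37464 and 49591 RU in both GFP+ cell types against 65.2 to 356 RU in both GFP- cell types, and Pdcd1, which encodes PD1, between 88057 and 307738 RU in both PD1hi cell types against 2103 to 4632 RU in the others. The arrays lay on 3 slides. All d12 arrays shared the first, d25 Tnaive and TFH the second, and d25 Treg and TFR the third, so that day and slide cannot be told apart, while TFH against Tnaive and TFR against Treg were compared within slides. The arrays of a cell type are separate sorts of pooled mice taken at different days. The p-values measure only the spread between the d12 and the d25 array of a cell type, after a common shift between the days.

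Nearly the whole list changed between the PD1- and the PD1hi gate. In TFH against Tnaive cells, Cxcr3, Cxcr4, Cxcr5, Cxcr6, Ccr4, Ccr6 and Ccr8 were higher and Ccr7 was lower, at a Benjamini-Hochberg adjusted p below 0.05 in the limma fit over all genes. These were 7 of 9 against 20.9% of all genes tested that were called higher, and 1 of 9 against 25.6% called lower. In TFR against Treg cells the same 7 receptors were higher, against 18.7% of all genes, and Ccr7 was lower, against 20.9%. Ccr10 was called in neither. The median log2 difference of the 9 receptors was 2.03 in the first and 2.01 in the second comparison, beside medians of -0.07 and -0.08 over all 15764 genes. The list was chosen with earlier results of these data known. Its counts and medians, here and below, therefore describe these 9 genes and not chemokine receptors in general. Without the filter on dim probes, more genes enter both the fit and the adjustment. The calls of Ccr6 and Ccr8 were then lost in the first comparison and those of Cxcr4, Cxcr6 and Ccr6 in the second. In bulk RNA of sorted cells, a larger share of expressing cells and more RNA per cell cannot be told apart.

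**Figure D1:**
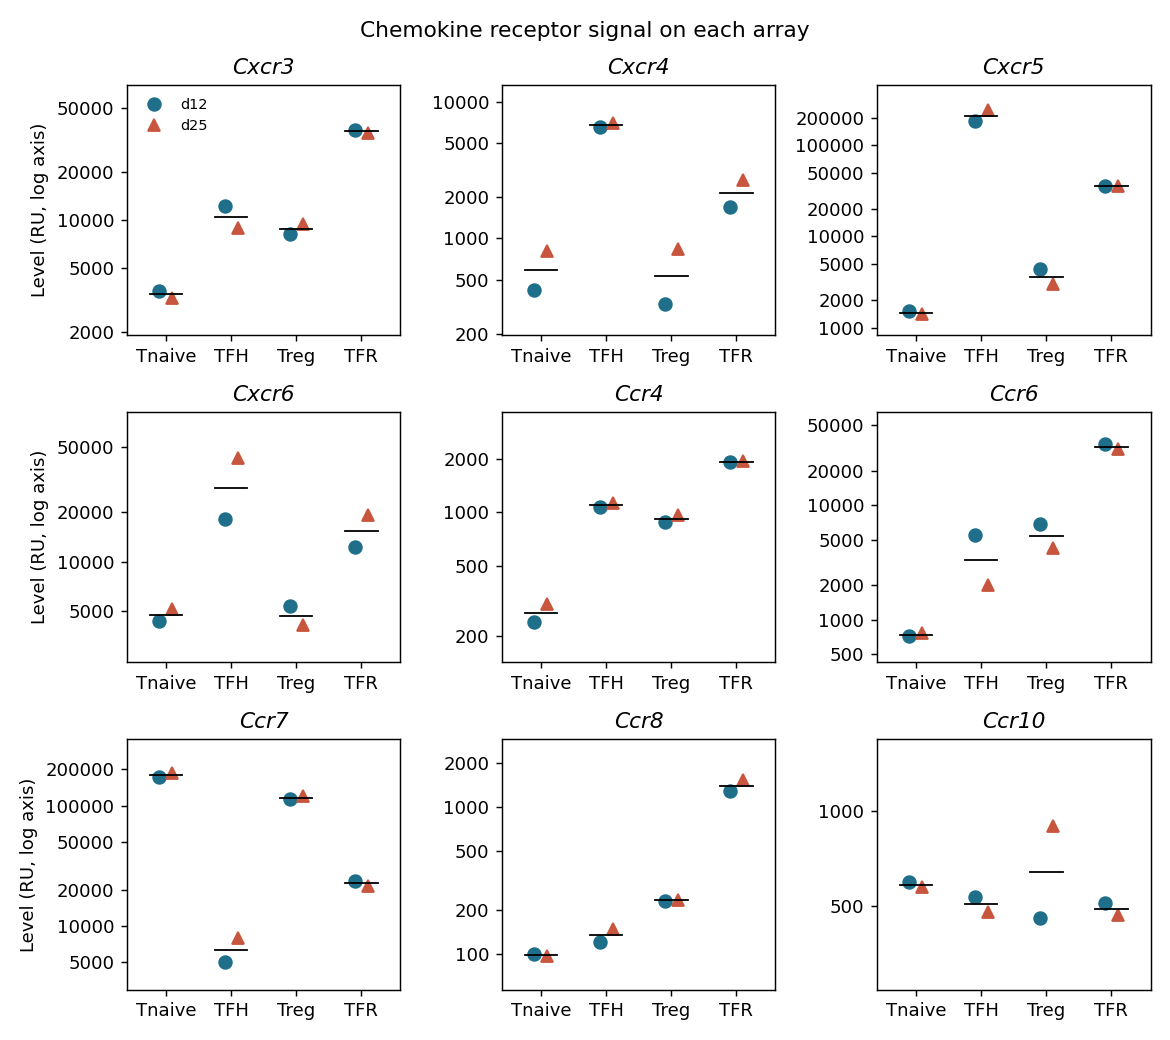
Level of each receptor on the 8 arrays in RU on a log axis that differs between panels, with circles for d12, triangles for d25 and a line at the mean of the log2 values (n = 2). TFR cells hold the highest level of Cxcr3, Ccr4, Ccr6 and Ccr8, TFH cells that of Cxcr4, Cxcr5 and Cxcr6, and Tnaive cells that of Ccr7.

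Cxcr5, the receptor for follicular entry, had the largest change of the list. Its probe lies on the minus strand at chr9:44320071-44320130 of build mm9. Its level was 1522 RU at d12 and 1400 RU at d25 in Tnaive cells, 185007 and 240836 RU in TFH cells, 35504 and 35996 RU in TFR cells, and 4394 and 2972 RU in Treg cells. The cell types did not overlap and lay in the order Tnaive, Treg, TFR, TFH, with all 3 neighbouring steps called. TFH cells were 145-fold above Tnaive cells (log2 difference 7.18 ± 0.23 SE, adjusted p = 0.000143). TFR cells were 9.89-fold above Treg cells (3.31 ± 0.23, adjusted p = 0.00128), yet 5.90-fold below TFH cells (-2.56 ± 0.23, adjusted p = 0.00331).

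Ccr7, the T zone receptor, ran the other way. Its probe lies at chr11:99005551-99005610 on the minus strand. Tnaive cells had 171983 RU at d12 and 186998 RU at d25, Treg cells 114130 and 119077 RU, TFR cells 23641 and 21583 RU, and TFH cells 5041 and 7956 RU. Both days gave the same order, from TFH as the lowest over TFR and Treg to Tnaive as the highest. The step from Treg to Tnaive did not pass the test (0.62, 95% interval 0.10 to 1.15, adjusted p = 0.133), although it did without the TFH array of d12 or of d25 (adjusted p = 0.0394 each). Ccr7 was 28.3-fold lower in TFH than in Tnaive cells (-4.82 ± 0.20, adjusted p = 0.000211) and in TFR 5.16-fold lower than in Treg cells (-2.37 ± 0.20, adjusted p = 0.00206). TFR cells had 3.57-fold more Ccr7 signal than TFH cells (1.83 ± 0.20, adjusted p = 0.00574), a call that was lost without the d12 TFR array (adjusted p = 0.0539).

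Cxcr4, the receptor for CXCL12, was highest in TFH cells. Its probe lies at chr1:130485079-130485138 on the minus strand. The level was 6539 RU at d12 and 6965 RU at d25 in TFH cells, 1710 and 2657 RU in TFR cells, 418 and 814 RU in Tnaive cells, and 333 and 841 RU in Treg cells. Treg and Tnaive cells overlapped and did not differ beyond their spread (-0.14, 95% interval -0.92 to 0.64, adjusted p = 0.813). TFH cells were 11.6-fold above Tnaive cells (3.53 ± 0.30, adjusted p = 0.00117) and TFR cells 4.03-fold above Treg cells (2.01 ± 0.30, adjusted p = 0.00821). The latter call was lost without either TFR array (adjusted p = 0.0675 without d12 and 0.0584 without d25). TFR cells were 3.17-fold below TFH cells (-1.66 ± 0.30, adjusted p = 0.0220), which was lost without the d12 TFH array (adjusted p = 0.0517) or either TFR array (0.127 without d12, 0.137 without d25), and with slide in place of day (0.0632). The call of TFR against TFH cells was also lost in the limma fit without a day term (adjusted p = 0.0926) and without the filter on dim probes (0.116). Tnaive and Treg cells were each higher at d25 than at d12, by 1.95-fold and 2.53-fold, whereas the TFH arrays differed by 1.07-fold.

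B cells also carry CXCR5, CXCR4, CCR6 and CCR7, so their markers were read on the same arrays. The 9 B cell genes summed to between 5830 and 7610 RU in Tnaive, 7756 and 16878 RU in TFH, 9908 and 10276 RU in Treg, and 7828 and 8839 RU in TFR cells. Between 4 and 8 of them were well above background on an array, and Pax5 was not on any of the 8. The d25 TFH array stood apart with 2743 RU of Ms4a1, the gene of CD20, against 245 RU on the d12 TFH array. At d12 the log2 difference of TFH against Tnaive cells was 6.93 for Cxcr5, 3.97 for Cxcr4, 2.92 for Ccr6 and -5.09 for Ccr7. At d25 it was 7.43 for Cxcr5, 3.097 for Cxcr4, 1.41 for Ccr6 and -4.55 for Ccr7. The part of B cell RNA in the d25 values was not tested.

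Cxcr3, Ccr6, Ccr4 and Ccr8 had their highest level in TFR cells. For Cxcr3, whose ligands are induced by interferon, the probe lies at chrX:98926920-98926979 on the minus strand. TFR cells had 36608 RU at d12 and 35095 RU at d25, TFH cells 12189 and 8909 RU, Treg cells 8224 and 9476 RU, and Tnaive cells 3640 and 3253 RU. TFR lay above and Tnaive below all other arrays, while TFH and Treg cells overlapped (0.24, 95% interval -0.20 to 0.68, adjusted p = 0.310). Cxcr3 was 3.03-fold higher in TFH than in Tnaive cells (1.60 ± 0.17, adjusted p = 0.00212) and 4.06-fold higher in TFR than in Treg cells (2.02 ± 0.17, adjusted p = 0.00195). TFR cells exceeded TFH cells 3.44-fold (1.78 ± 0.17, adjusted p = 0.00384). These 3 calls were made under all 20 alternatives.

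Ccr6, the receptor for CCL20, is read by a probe at chr17:8449933-8449992 on the plus strand. TFR cells had 34334 RU at d12 and 31034 RU at d25, Treg cells 6844 and 4244 RU, TFH cells 5454 and 2034 RU, and Tnaive cells 721 and 768 RU. Treg and TFH cells overlapped (-0.69 for TFH minus Treg, 95% interval -1.68 to 0.29, adjusted p = 0.206), which became a call without the d12 TFH array (-1.28, adjusted p = 0.0411). TFR cells were 9.80-fold above TFH cells (3.29 ± 0.38, adjusted p = 0.00643) and 6.06-fold above Treg cells (2.60 ± 0.38, adjusted p = 0.00760). The first was 2.70 without the d25 TFH array and 3.88 without the d12 TFH array. Without the d12 TFR array it was not called (adjusted p = 0.0509), nor without the d25 TFR array (0.0616). The second was not called without the d12 Treg array (0.0504), the d25 Treg array (0.0559) or the d25 TFR array (0.0633). Ccr6 was 4.48-fold higher in TFH than in Tnaive cells (2.16 ± 0.38, adjusted p = 0.00985). The value was 1.58 without the d12 TFH array and 2.75 without the d25 TFH array, the call being lost without the d12 Tnaive array (adjusted p = 0.0557). Between the TFH arrays alone, the d25 level of Ccr6 was 0.373 of the d12 level.

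Ccr4, which binds CCL17 and CCL22, is read at chr9:114399467-114399526 on the minus strand. Its level was 241 RU at d12 and 304 RU at d25 in Tnaive cells, 877 and 972 RU in Treg cells, 1077 and 1126 RU in TFH cells, and 1919 and 1943 RU in TFR cells. No 2 cell types overlapped, but Treg and TFH cells did not differ beyond their spread (0.25, 95% interval -0.03 to 0.54, adjusted p = 0.128). Ccr4 was 4.07-fold higher in TFH than in Tnaive cells (2.03 ± 0.11, adjusted p = 0.000345) and 2.09-fold higher in TFR than in Treg cells (1.06 ± 0.11, adjusted p = 0.00319). TFR cells were 1.75-fold above TFH cells (0.81 ± 0.11, adjusted p = 0.00985). This call was lost without the d12 TFR array (adjusted p = 0.0862), the d25 TFR array (0.0562) or the d25 TFH array (0.0504).

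Ccr8, the receptor for CCL1, is read by a pair of probes whose sequences are shown because they differed in sensitivity. Both lie on the plus strand of the gene in build mm9, 648 bases apart, and both can be read from their first base without a stop codon before their end. The brighter one, at chr9:120003941-120004000, ends in a stop codon, set in capitals. The other, at chr9:120003293-120003352, holds in capitals the codons for Asp-Arg-Tyr, a motif common to chemokine receptors.
Ccr8 brighter probe: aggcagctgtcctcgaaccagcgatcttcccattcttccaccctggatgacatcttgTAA
Ccr8 second probe: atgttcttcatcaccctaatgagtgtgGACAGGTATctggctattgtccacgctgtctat

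On the brighter Ccr8 probe, TFR cells had 1286 RU at d12 and 1532 RU at d25, Treg cells 229 and 233 RU, TFH cells 121 and 147 RU, and Tnaive cells 100 and 96.8 RU. The cell types did not overlap, and TFR stood far above the other 3. TFR cells were 10.5-fold above TFH cells (3.40 ± 0.12, adjusted p = 0.000518) and 6.07-fold above Treg cells (2.60 ± 0.12, adjusted p = 0.000553), both called under all 20 alternatives. With normexp background correction, the log2 difference of TFR and TFH cells was 2.38, and with the mean of both probes it was 4.13. TFH cells were 1.35-fold above Tnaive cells (0.44 ± 0.12, adjusted p = 0.0352), a call made under 5 of 20 alternatives and lost without each of the 8 arrays in turn (adjusted p = 0.0524 to 0.179). The second probe was well above background on the TFR arrays with 520 RU at d12 and 703 RU at d25 and on the d25 Treg array with 94.7 RU. It read 36.9 RU on the d12 Treg array and 20 to 22 RU on the TFH and Tnaive arrays, not well above background. TFR cells were on this probe at least 17.6-fold above TFH cells and at least 10.4-fold above Tnaive cells. For these bounds, the dim level of each array was the lowest signal of a probe well above background or the probe's own, whichever was higher. The second probe passed the filter only through the TFR arrays, so the bounds are given without a test.

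The 250 bases before the start of the receptor genes that were highest in TFR cells are shown because these genes share their highest cell type. Their changes differed in other comparisons, with Ccr8 rising by 0.44 and Ccr4 by 2.03 on the log2 scale from Tnaive to TFH cells. They come from RefSeq in build GRCm38.p6, where 6 of the 9 receptors had an entry. Capitals mark any of 6 short motifs searched on both strands, namely GGTGTG of T-box factors, TGTTTA of forkhead factors, AGGTCA of ROR factors, TGANTCA of AP-1, AGATAA of GATA factors and CAGCTG of E proteins. No matches overlapped in these sequences. Over all 32851 windows of this length, these letters occurred in 16.3%, 12.0%, 14.0%, 6.75%, 9.99% and 13.0%.
Cxcr3, chrX:101734148-101734397, minus strand: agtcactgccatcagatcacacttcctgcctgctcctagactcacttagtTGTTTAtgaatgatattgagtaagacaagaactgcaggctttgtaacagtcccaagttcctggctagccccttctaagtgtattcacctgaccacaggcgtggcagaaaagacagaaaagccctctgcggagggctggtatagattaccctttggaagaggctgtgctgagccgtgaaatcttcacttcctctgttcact
Ccr6, first start, chr17:8235793-8236042, plus strand: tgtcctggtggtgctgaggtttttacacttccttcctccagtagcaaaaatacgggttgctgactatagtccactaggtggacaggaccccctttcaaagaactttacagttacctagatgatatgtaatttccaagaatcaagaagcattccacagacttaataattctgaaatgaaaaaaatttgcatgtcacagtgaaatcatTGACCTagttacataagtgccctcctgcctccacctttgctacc
Ccr4, chr9:114496545-114496794, minus strand: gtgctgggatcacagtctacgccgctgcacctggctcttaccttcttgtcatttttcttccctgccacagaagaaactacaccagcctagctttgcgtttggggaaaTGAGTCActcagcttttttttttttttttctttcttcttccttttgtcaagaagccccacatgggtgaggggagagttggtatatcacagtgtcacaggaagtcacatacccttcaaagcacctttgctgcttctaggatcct
Ccr8, chr9:120091883-120092132, plus strand: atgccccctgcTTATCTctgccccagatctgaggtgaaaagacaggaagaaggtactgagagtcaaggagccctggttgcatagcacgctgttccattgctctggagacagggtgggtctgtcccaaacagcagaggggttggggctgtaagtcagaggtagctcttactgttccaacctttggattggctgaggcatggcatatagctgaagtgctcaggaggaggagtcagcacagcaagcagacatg

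Each of these 4 windows held 1 match and no motif occurred in more than 1 of them. Cxcr3 held the forkhead letters beginning 200 bases before its start, Ccr6 the ROR letters at 44 bases, Ccr4 the AP-1 letters at 143 bases and Ccr8 the GATA letters at 239 bases. A second Ccr6 start, not shown, held the GATA letters at 70 bases. The windows of Cxcr4 and Cxcr6 held none of the 6.

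Cxcr6, the receptor for CXCL16, was higher in both PD1hi cell types. Both of its probes lie on the plus strand and overlap, at chr9:123720719-123720778 and chr9:123720709-123720768. TFH cells had 18139 RU at d12 and 43086 RU at d25 on the brighter probe, TFR cells 12217 and 19183 RU, Treg cells 5319 and 4107 RU, and Tnaive cells 4342 and 5101 RU. The d25 TFH array was the highest by far, TFH and TFR overlapped, and so did Treg and Tnaive. Cxcr6 was 5.94-fold higher in TFH than in Tnaive cells (2.57 ± 0.39, adjusted p = 0.00614). It was 3.28-fold higher in TFR than in Treg cells (1.71 ± 0.39, adjusted p = 0.0247), which was lost without either TFR array (adjusted p = 0.108 without d12, 0.142 without d25) or the d25 Treg array (0.0985). TFR and TFH cells did not differ beyond their spread (-0.87, 95% interval -1.87 to 0.13, adjusted p = 0.175). The second probe gave 2.64 and 1.73 for the first pair of differences.

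Among the markers of NK and gamma delta T cells, 3 of 4 were on the array, and only Klrb1c, the gene of NK1.1, was well above background on any array, on 7 of the 8. It ran beside Cxcr6, with 1484 RU at d12 and 3084 RU at d25 in TFH, 819 and 750 RU in TFR, 161 and 95.8 RU in Tnaive, and 76.5 and 34.9 RU in Treg cells. Ncr1 and Klrk1 were not well above background on any array. The list summed to between 1528 and 3129 RU in TFH, 790 and 859 RU in TFR, 146 and 221 RU in Tnaive, and 74.9 and 116 RU in Treg cells. Its part in the Cxcr6 values was not tested.

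The CD8 genes Cd8a and Cd8b1 moved with the gate as well. They summed to between 4966 and 5126 RU in Tnaive, 4214 and 4575 RU in Treg, 2112 and 3176 RU in TFH, and 2108 and 2235 RU in TFR cells. Both were well above background on all 8 arrays. In TFH against Tnaive cells 1 of 2 was lower in the limma fit, Cd8b1 (-1.08 ± 0.16, adjusted p = 0.00604), against 25.6% of all genes tested. In TFR against Treg cells 2 of 2 were lower, against 20.9%, with a median of -1.07. Their part in the receptor values was not tested.

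Ccr10 did not pass the test in any comparison. Its probe lies at chr11:101034312-101034371 on the minus strand. The level was 595 RU at d12 and 573 RU at d25 in Tnaive cells, 534 and 478 RU in TFH cells, 510 and 467 RU in TFR cells, and 458 and 895 RU in Treg cells. The d25 Treg array alone stood above the rest. The 95% intervals of the log2 difference ran from -1.01 to 0.59 for TFH against Tnaive and from -1.19 to 0.41 for TFR against Treg cells. Without the d12 Treg array, TFR against Treg cells became a call (-0.93, adjusted p = 0.0248), and so did TFH against Treg cells (-0.88, adjusted p = 0.0209).

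**Figure D2:**
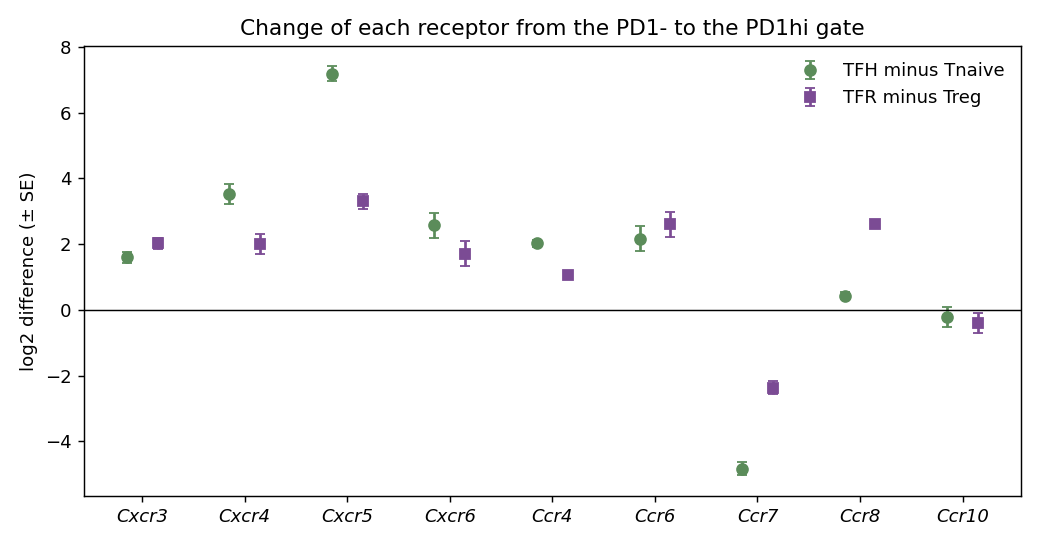
Log2 difference of each receptor between the PD1hi and the PD1- gate, with circles for TFH minus Tnaive, squares for TFR minus Treg and bars for the SE of the limma fit (n = 2 arrays per cell type). Cxcr5 and Ccr7 moved further in the GFP- cells, and Ccr8 further in the GFP+ cells.

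The size of the change differed between GFP- and GFP+ cells for 4 of the 9 receptors, against 8.51% of all genes tested. The differences below are the change from Treg to TFR minus that from Tnaive to TFH on the log2 scale. For Cxcr5 it was -3.87 ± 0.32 (adjusted p = 0.00692), with -3.91 at d12 and -3.83 at d25. The Cxcr5 call was lost without the d12 TFR array (adjusted p = 0.0537) or the d25 TFR array (0.0504). For Ccr7 it was 2.46 ± 0.29 (adjusted p = 0.0142), the fall being smaller in GFP+ cells. The call was lost on leaving out any one of the 6 Tnaive, Treg and TFR arrays (adjusted p = 0.0562 to 0.0781). For Ccr8 it was 2.16 ± 0.17 (adjusted p = 0.00593), called under all 20 alternatives. For Ccr4 it was -0.96 ± 0.16 (adjusted p = 0.0303), a call lost without each of the 8 arrays (adjusted p = 0.0618 to 0.131). For Cxcr4 the value was -1.52 ± 0.43, which did not pass the test (adjusted p = 0.108), although it did with normexp background correction (-1.45 ± 0.28, adjusted p = 0.0300). Cxcr3, Cxcr6, Ccr6 and Ccr10 were not called either (adjusted p = 0.344 to 0.838). Without the filter on dim probes Ccr8 alone was called.

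**Figure D3:**
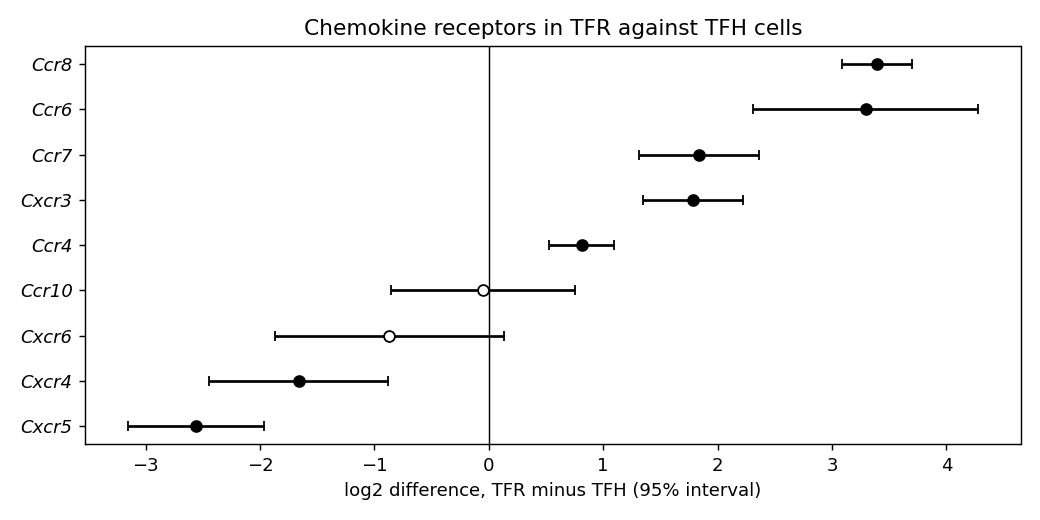
Log2 difference of each receptor between TFR and TFH cells with its 95% interval (limma, n = 2 arrays per cell type), filled where the adjusted p was below 0.05. Ccr8 and Ccr6 lie farthest to the right, Cxcr5 farthest to the left, and the intervals of Ccr10 and Cxcr6 include 0.

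Between the PD1hi cell types, Ccr8, Ccr6, Ccr7, Cxcr3 and Ccr4 were higher in TFR cells, 5 of 9 against 11.7% of all genes tested. Cxcr5 and Cxcr4 were lower, 2 of 9 against 10.5%. At d12 both cell types lay on the first slide. The differences there were 3.41 for Ccr8, 2.65 for Ccr6, 2.23 for Ccr7, 1.59 for Cxcr3, 0.83 for Ccr4, -1.93 for Cxcr4 and -2.38 for Cxcr5, with the same signs at d25 across slides. The count fell to 3 without the d12 TFR array and to 4 without the d25 TFR array, and Cxcr4 and Ccr6 were not called without the filter on dim probes.

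Treg and Tnaive cells share the PD1-GL7- gate. In Treg cells Cxcr3, Cxcr5, Ccr4, Ccr6 and Ccr8 were higher, 5 of 9 against 5.89% of all genes tested, and none was lower, against 3.98% (by limma, with 1 of 9, Ccr7, at an unadjusted p below 0.05). The differences were 2.86 ± 0.38 for Ccr6 (adjusted p = 0.0157), 1.77 ± 0.11 for Ccr4 (adjusted p = 0.00217), 1.36 ± 0.17 for Cxcr3 (adjusted p = 0.0133), 1.31 ± 0.23 for Cxcr5 (adjusted p = 0.0325) and 1.23 ± 0.12 for Ccr8 (adjusted p = 0.00653). Only Ccr4 was called under all alternatives. With slide in place of day the adjusted p was 0.0988 for Ccr6, 0.0578 for Cxcr3, 0.0875 for Cxcr5 and 0.0538 for Ccr8. The count was 1 without the d25 Treg array, 2 without the d12 Tnaive, d12 Treg or either TFR array, and 3 without the d25 Tnaive array.

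Across the other pairs, 5 of 9 receptors differed between TFH and Treg cells, against 39.9% of all genes, and 8 of 9 between TFR and Tnaive cells, against 53.1%. In the former, Cxcr4, Cxcr5 and Cxcr6 were higher in TFH cells and Ccr7 and Ccr8 lower. No receptor differed between d25 and d12 over the 4 cell types, against 0.0698% of all genes in the limma fit. At an unadjusted p below 0.05 there was 1 of 9, Cxcr4 (0.76 ± 0.21, adjusted p = 0.114).

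The ligands of these receptors were read in the same cells from a list of 36 chemokine genes. Of these, 35 were on the array, 17 were tested and the other 18 had no cell type with both arrays well above background. In TFH against Tnaive cells 5 of the 17 were higher in the limma fit, against 20.9% of all genes tested. None was lower, against 25.6% (1 lower at an unadjusted p below 0.05, Ccl19). In TFR against Treg cells 7 were higher, against 18.7%, and none lower, against 20.9% (0 lower at an unadjusted p below 0.05). Some of the higher genes passed the filter only where they were high, Ccl3 through TFH cells, and Ccl1 and Ccl12 through TFH and TFR cells. The filter thus favoured their direction. The median log2 difference of the 17 was 0.29 and 0.50. Cxcl10, a CXCR3 ligand, rose beside its receptor, from 115 RU at d12 and 117 RU at d25 in Tnaive over 701 and 630 RU in Treg and 859 and 1183 RU in TFH to 6375 and 7899 RU in TFR cells. Its log2 difference was 3.12 ± 0.17 for TFH against Tnaive (adjusted p = 0.000356) and 3.42 ± 0.17 for TFR against Treg cells (adjusted p = 0.000629). The other CXCR3 ligands, Cxcl9 and Cxcl11, were not called in either comparison (adjusted p = 0.778 and 0.342 for TFH against Tnaive, 0.942 and 0.797 for TFR against Treg cells). Ccl1, the CCR8 ligand, was named after its values had been seen, since it was well above background on only 1 of 2 Tnaive and 1 of 2 Treg arrays. It read 6633 and 6205 RU in TFR, 1976 and 2097 RU in TFH, 145 and 28.1 RU in Treg, and 79.2 and 106.8 RU in Tnaive cells. Ccl8, which binds CCR8 in mice, rose by 2.70 ± 0.61 in TFH against Tnaive (adjusted p = 0.0207) and by 2.27 ± 0.61 in TFR against Treg cells (adjusted p = 0.0396). Xcl1, the ligand of XCR1 on dendritic cells, rose by 4.48 ± 0.53 in TFR against Treg cells (adjusted p = 0.00436).

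Of the ligands for the remaining receptors, the CCR10 ligand Ccl27a was higher in TFR than in Treg cells (0.53 ± 0.10, adjusted p = 0.0159) and than in TFH cells (0.50 ± 0.10, adjusted p = 0.0311). It read 1951 RU at d12 and 1343 RU at d25 in TFR, 1396 and 944 RU in TFH, 1255 and 995 RU in Treg, and 1225 and 964 RU in Tnaive cells. It was named after its values had been seen, and the d25 TFR array lay below the d12 TFH array. The CXCR4 ligand Cxcl12, the CCR6 ligand Ccl20 and the CCR4 ligand Ccl22 were not well above background on any array. Ccl17, which CCR4 also binds, was well above background on 1 TFH array only and was not tested. It read 20 RU at d12 and 69.0 RU at d25 in TFH cells. The CXCR5 ligand Cxcl13, the CCR7 ligand Ccl19 and the CXCR6 ligand Cxcl16 were tested and not called for TFH against Tnaive (adjusted p = 0.885, 0.0744 and 0.934) or TFR against Treg cells (0.929, 0.131 and 0.385). Myeloid cells make many chemokines, and the 8 myeloid genes summed to between 3460 and 4793 RU in Tnaive, 7436 and 8330 RU in TFH, 1788 and 2055 RU in Treg, and 4771 and 5528 RU in TFR cells. In TFH cells Cd68 made up 5116 of 7436 RU at d12 and 3777 of 8330 RU at d25. Cd14 and Adgre1 were not well above background on any array. Their part in the ligand values was not tested.

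Of 15 other chemokine receptors, 8 were not tested, among them Ccr1, Cxcr2, Xcr1 and Ackr1 to Ackr4, for lack of signal above background. Of the 7 tested, 4 were lower in TFH than in Tnaive cells in the limma fit, against 25.6% of all genes tested. None was higher, against 20.9% (0 higher at an unadjusted p below 0.05). With TFR against Treg cells 2 were higher, against 18.7%, and 2 lower, against 20.9%. Cxcr1, among the 4, passed the filter only through Tnaive cells, and Cx3cr1, among the 2 higher, only through TFR cells. The filter thus favoured their direction. Ccr9, the receptor for gut homing, was lower in TFH than in Tnaive cells (-1.84 ± 0.30, adjusted p = 0.00802 in limma). It was also lower in TFR than in Treg cells (-4.21 ± 0.30, adjusted p = 0.00136). It was well above background on only 1 of the 2 TFR arrays. Ccrl2, which binds chemerin without signalling, was higher in TFR than in Treg cells (1.63 ± 0.13, adjusted p = 0.00162), with 1415 RU at d12 and 1979 RU at d25 in TFR against 518 and 561 RU in Treg cells. Ccr2, a receptor of monocytes and effector T cells, was lower in TFR than in Treg cells (-1.57 ± 0.25, adjusted p = 0.00924). It was called lower in TFH than in Tnaive cells too. There it read the floor of 20 RU on both TFH arrays, against 94.9 RU at d12 and 54.1 RU at d25 in Tnaive cells.

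Behind the receptors, 25 of 28 genes of G protein coupling and desensitisation were tested. In TFH against Tnaive cells 10 of the 25 were higher, against 20.9% of all genes tested, and 7 lower, against 25.6%. In TFR against Treg cells 4 were higher, against 18.7%, and 7 lower, against 20.9%. The medians of the 25 were 0.09 and -0.04. Pik3r5, a regulatory subunit of the PI3 kinase that G proteins activate, fell by 3.64 ± 0.14 in TFH (adjusted p = 0.000188) and by 2.40 ± 0.14 in TFR cells (adjusted p = 0.000912). Gng2, a G protein gamma subunit, rose by 2.37 ± 0.10 (adjusted p = 0.000228) and 1.15 ± 0.10 (adjusted p = 0.00236). Plcb3, a phospholipase C, rose by 1.96 ± 0.11 in TFH cells (adjusted p = 0.000402), and Gnaq, a G protein alpha subunit, by 2.07 ± 0.17 in TFR against Treg cells (adjusted p = 0.00181). Gnaq was also at least 9.38-fold higher in TFH than in Tnaive cells (mean 601 against 58.5 RU). It was not well above background on either Tnaive array. Gnai2, the inhibitory alpha subunit through which most chemokine receptors signal, was not called in either (adjusted p = 0.419 and 0.819). The arrestin genes Arrb1 and Arrb2, whose proteins switch receptors off, fell in both, by between 0.58 and 0.60 on the log2 scale (adjusted p = 0.0103 to 0.0207). Gnai2, Arrb1 and Arrb2 were not among the called genes with the largest differences and are named outside the naming rule given below.

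**Figure D4:**
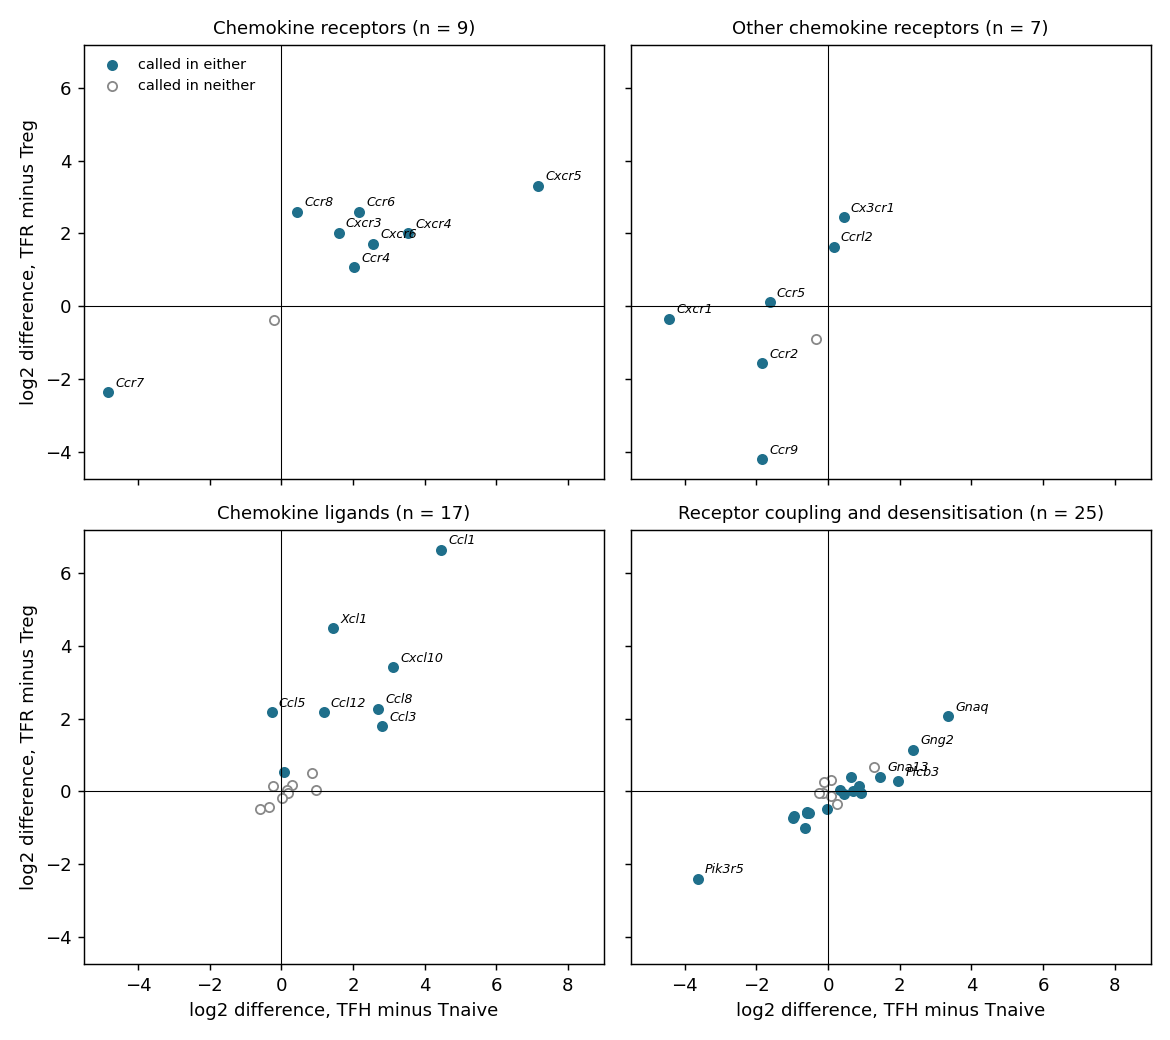
Log2 difference of TFR minus Treg against that of TFH minus Tnaive for the tested genes of each list (limma, n = 2 arrays per cell type), filled where the adjusted p was below 0.05 in either. Of the 9 receptors, 7 lie in the upper right and Ccr7 in the lower left; values of genes at the floor of 20 RU on a side, such as Cxcr1 in TFH, are not full folds.

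The genes whose pattern over the 8 arrays lay closest to each receptor were found by the root mean square distance of gene-centred log2 values. For Ccr7 they were Gpr18 at 0.10 and Il4ra at 0.24, for Cxcr5 Rasl11a at 0.20 and Coro2b at 0.24, and for Cxcr4 Dmwd at 0.44 and Bcl6, the transcription factor that defines TFH cells, at 0.45. Gpr18 read 12961 and 12396 RU in Tnaive and 356 and 489 RU in TFH cells. For Cxcr6 they were Cebpb at 0.27 and Bmf at 0.28. For the receptors highest in TFR cells they were Ckap2l at 0.13 and Sgol1 at 0.18 beside Cxcr3, both genes of mitosis, Phlda3 and Maged2 at 0.21 beside Ccr4, Tmem205 and Gm5795 at 0.39 beside Ccr6, and Gp49a at 0.21 and 9430078K24Rik at 0.26 beside Ccr8. Ckap2l, Gm5795 and Gp49a were at the floor of 20 RU on both Tnaive arrays. Ccr10, with little variation, lay next to 1810013L24Rik at 0.11 and Nrg3os at 0.12.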

How the data were processed

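The authors deposited 1-colour Agilent spot intensities, read with Agilent Feature Extraction 10.7.3.1 per the labels, and a table of normalized intensities, used as an alternative. Their steps were repeated from the spots. Spots with software flags, beyond 1.42 times the interquartile range or with a pixel coefficient of variation above 0.5 were excluded, which kept 86.4% to 89.2%. The others were averaged per probe, quantile normalized, scaled to a 75th percentile of 1500 and floored at 20. The values departed from the authors' table at the bright end. The median log2 difference to it was 0 over all probes, but 0.53 for the brightest percent of probes on every array. The highest level was 856575 RU here and 585162 RU in their table. With their table, TFR against TFH cells gave 3.11 for Ccr6 and 3.19 for Ccr8, beside 3.29 and 3.40 here. The brightest probe stood for a gene, which was tested if a cell type had both arrays well above background. Log2 values, computed from the deposited intensities, were fitted with limma 3.58.1 in R 4.3.3 (cell type and day, 3 residual degrees of freedom, Benjamini-Hochberg over 15764 genes). The size of known changes was checked on simulated data without day or slide effects, which does not test the p-values of the real arrays. All 9 receptors are named. From each pathway list, up to 3 called genes with the largest differences, well above background on both sides, are named, and for each receptor the closest 2 genes. Other genes of the lists are named outside this rule, among them ligands of the 9 receptors, Gnai2, Arrb1 and Arrb2. So are some comparisons of named genes, such as Ccr9 in TFR against Treg cells. The receptors and lists were chosen with earlier results of these data known. The 20 alternatives covered scaling, background, filters, probes, slide, day, variance model and leaving out each array. PP cells were not analysed here.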

Additional observations from a re-analysis of the deposited data

Results flagged for a closer look

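For 4 receptors the change from Treg to TFR cells differed from that from Tnaive to TFH cells by the interaction contrast of the limma fit. The difference on the log2 scale was -3.87 for Cxcr5, -0.96 for Ccr4, 2.46 for Ccr7 and 2.16 for Ccr8. The direction was the same at both days for each of the 4. Only Ccr8 was called under all 20 alternatives, whereas Ccr4 was called under 9, Ccr7 under 13 and Cxcr5 under 17.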

How the results depend on the processing

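Of 72 differences, 9 receptors in 8 comparisons, 45 were called. Over their 911 values under the alternatives none changed sign, and 97 were no longer called. Without a filter on dim probes, the number of receptors called was 5 in TFR versus Treg, 2 in Treg versus Tnaive and 1 for the difference of the follicular changes, and with slide in place of day it was 1 in Treg versus Tnaive. The cause was not tested. Leaving out 1 array gave 5 to 8 receptors in TFR versus Treg, 3 to 7 in TFR versus TFH, 1 to 6 in Treg versus Tnaive and 1 to 3 for the difference of the follicular changes. In such a fit the lone array of a cell type is assumed to vary like the others. For all genes, the number called ran from 4311 to 7824 in TFH versus Tnaive (7334 in the report's fit), 2500 to 6812 in TFR versus Treg (6248), 948 to 4251 in TFR versus TFH (3488), 419 to 2069 in Treg versus Tnaive (1555), 3164 to 6828 in TFH versus Treg (6285), 4669 to 8915 in TFR versus Tnaive (8373), 297 to 1821 for the difference (1341) and 0 to 1092 in d25 versus d12 (11). No day contrast can be had with slide as a term or without day.

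Signs changed only in differences that were not called. For Cxcr6 in Treg versus Tnaive the log2 difference was 0.0439 with normexp, 0.0437 with no spot excluded, 0.0481 with the mean of all probes, 0.29 with slide in place of day, 0.11 with slide as a random block and 0.11 on the other probe, and -0.55 to 0.53 on leaving out 1 array. For Ccr10 in Treg versus Tnaive it was -0.13 with slide in place of day. On leaving out 1 array, Ccr10 ran from -0.42 to 0.0015 in TFH versus Tnaive, -0.93 to 0.15 in TFR versus Treg, -0.26 to 0.16 in TFR versus TFH, -0.41 to 0.67 in Treg versus Tnaive, -0.88 to 0.20 in TFH versus Treg, -0.72 to 0.36 for the difference and -0.11 to 0.26 in d25 versus d12. Likewise Cxcr4 ran from -0.53 to 0.25 in Treg versus Tnaive, Cxcr5 from -0.22 to 0.0933 in d25 versus d12, and Ccr6 from -0.15 to 1.02 for the difference. The labels give no replicate numbers, and arrays were matched by day, a term of the report's fit. With 2 arrays per cell type, precision is limited by their number. Ccr8 lay nearest to background in Tnaive and TFH cells.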

Other observations

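The 3 genes of antibody-secreting cells summed to 7533 RU on the d12 Tnaive array and 1197 RU on the d25 Tnaive array, to 3288 and 1560 RU in TFH, 3013 and 456 RU in Treg, and 962 and 709 RU in TFR cells. Nearly all of this was Jchain, with 7493 RU on the d12 Tnaive array, while no array had Tnfrsf17 well above background. Jchain, the only one of them that was tested, had its lowest limma adjusted p in TFR versus Tnaive (0.0594).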
